A study of Mus musculus with 26 samples.

Results

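Lysosomal genes were followed in sorted mouse microglia, the resident macrophages of the brain, at 2 embryonic stages and 1 postnatal stage. The 40 members were chosen by gene symbol from the 31053 genes of the count matrices. They comprise 11 cathepsins and legumain, 14 other hydrolases and their cofactors, 9 membrane proteins, 5 subunits of the proton pump and the transcription factor Tfeb. All were wild-type C57Bl/6N mice. Mothers received an intraperitoneal injection of saline or of poly(I:C), an RNA duplex made in vitro that stands in for a virus and gives maternal immune activation (MIA), at E12.5. Microglia were sorted by Cd11b, Cx3cr1 and Cd45 from the primary somatosensory cortex, with the meninges removed, at E13, E15 and postnatal day 14 (P14). There were 3 saline and 3 MIA libraries at E13, 3 and 3 at E15, and 4 and 2 at P14. Embryonic samples held both sexes. At P14 the libraries were mixed as well, except that saline replicate 3 was split into 1 female and 1 male library. These 2 libraries carry the same replicate number and were counted as 2 samples, so the 4 P14 saline libraries do not stand for 4 replicates. MIA libraries therefore come from offspring of injected mothers, not from mice injected themselves, and where a library held several animals they were pooled. The other 8 samples of the series, which are nuclei, were not used here.

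Lysosomes are acidic organelles in which enzymes break down proteins, lipids and sugars delivered by endocytosis, phagocytosis and autophagy. A proton pump, the V-ATPase, acidifies the lumen, and membrane proteins such as the Lamp glycoproteins line and protect the membrane and carry lipids, ions and products across it. Cathepsins are the proteases of this compartment. Microglia take up dying cells and synaptic material during development, and in macrophages generally several of these enzymes also prepare antigen or are secreted.

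The promoters of some members carry the palindromic word that the MiT family of transcription factors, to which Tfeb belongs, is known to bind. Promoter windows of 250 bases before to 50 bases after the start site were taken from RefSeq on GRCm38.p6 and matched 33 of the 40 members. Ctsb, Ctsh, Galns, Asah1, Npc1, Atp6v0d2 and Atp6v1b2 were not matched. These 33 members had 40 windows, and a gene was counted if any of its windows held the word. The word CACGTG, which reads the same on both strands, was found in 12 of the 33 (36.4%), against 8.09% of all 27025 genes with a window. The longer word TCACGTGA, which contains CACGTG and is also its own reverse complement, was found in 6 of the 33 (18.2%), against 1.12% of all these genes. The windows below show the longer word in capitals in those 6 members, which come from 4 of the 5 subgroups. Each is written 5′ to 3′ on the strand of its gene.
Ctsa, cathepsin A, chr2:164833749-164833778, plus strand: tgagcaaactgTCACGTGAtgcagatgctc
Ctsd, cathepsin D, chr7:142387908-142387937, minus strand: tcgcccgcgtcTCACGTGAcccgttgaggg
Gla, alpha-galactosidase A, chrX:134601182-134601211, minus strand: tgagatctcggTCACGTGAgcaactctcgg
Mcoln1, the lysosomal cation channel mucolipin 1, chr8:3500462-3500491, plus strand: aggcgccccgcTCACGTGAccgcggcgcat
Atp6v0d1, a membrane-sector subunit of the proton pump, chr8:105566050-105566079, minus strand: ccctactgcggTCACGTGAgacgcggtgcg
Atp6v1a, the ATP-hydrolysing subunit of the pump, chr16:44139373-44139402, minus strand: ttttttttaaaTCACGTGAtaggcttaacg
Ctsa and Gla each held the longer word at a further position. Ctsf, Ctsl, Glb1, Lamp1, Lgmn and Naglu held only the shorter word, shown in capitals here for the member that changed most between E13 and E15 and for Lamp1, which held 4 copies.
Ctsf, cathepsin F, chr19:4855074-4855103, plus strand: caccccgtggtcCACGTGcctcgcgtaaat
Lamp1, chr8:13159104-13159133, plus strand: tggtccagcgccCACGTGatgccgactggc
These are matches of letters and not measured binding.

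After filtering, 63629 cells remained in the 18 libraries, 272 to 5835 per library, with 6025425 to 103470477 unique molecular identifiers (UMIs) per library and a median of 3690 to 25630.5 UMIs per cell. Levels of single genes are CPM, UMIs scaled to 1000000 per library with TMM normalisation factors, while marker panels are given as summed UMIs per 1000000 UMIs without these factors. The macrophage marker panel stood at 21621 to 23548 at E13, 29773 to 39671 at E15 and 47510 to 55448 at P14, and the homeostatic microglia panel at 4486 to 5068 at E13 and 23770 to 27612 at P14. The macrophage panel was also used to keep cells, so its presence in every library is no check of the label. The border macrophage panel stood at 1570 in E13 saline 1 and 1689 in E13 MIA 1, against 276 to 744 in the other E13 libraries. Dividing cells made up 40.4% to 51.3% of cells at E13, 7.33% to 13.2% at E15 except for 32.5% in E15 saline 1, and 0.297% to 2.69% at P14. Some libraries shared cell barcodes. Of the 356 cells of E13 MIA 2, 246 had a barcode that was also in the P14 female library and 219 one that was in E15 MIA 3, and of the 272 cells of E13 MIA 1, 133 shared a barcode with P14 MIA 1. Cells whose barcode had more UMIs in another library made up 16.2% of the cells and 10.2% of the UMIs of E15 MIA 3. In the P14 female and male libraries they made up 8.11% and 6.03% of the UMIs. In the P14 female library, cells sharing a barcode with E13 MIA 2 held 638 Lyz2 UMIs per 1000000, against 50.4 in its other cells. The same barcodes held 681 in E13 MIA 2. For Sparc these values were 601, 8117.5 and 595. Levels below include such cells: Ctsz in the P14 female library was 725 CPM with them and 648 without. E15 MIA 1 stood apart: genes induced by tissue dissociation summed to 1945 UMIs per 1000000 there against 328 to 863 in the other libraries, 25.28% of its cells were removed by the marker filter against 0.98% to 9.27% elsewhere, and it had the highest level of the 6 E15 libraries for 29 of 38 members and for 25.7% of all genes. The part of these features in the results was not tested. The panel of dissociation genes includes Ccl3 and Ccl4, which the paper also gives as markers of a microglial substate. Its sum is therefore no measure of dissociation alone. Counts of calls between stages are also given without the cells of shared barcodes. Values without E15 MIA 1 are given for MIA against saline at E15 and for the counts in MIA from E15 to P14. Counts in cell classes are given with these cells and, at E15, with this library.

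The members together took 2.34% ± 0.0736 of UMIs in E13 saline (SD, n = 3), 3.39% ± 0.354 in E15 saline (n = 3) and 3.44% ± 0.0786 in P14 saline (n = 4). The n = 4 counts the female and male libraries of replicate 3 apart. In MIA libraries the same sum was 2.40% ± 0.122 at E13 (n = 3), 3.64% ± 0.718 at E15 (n = 3) and 3.59% ± 0.0192 at P14 (n = 2). The whole set therefore stood higher at E15 and P14 than at E13, but its parts went different ways. The 5 listed proton pump subunits, which hold few UMIs and are not the whole pump, took 0.0329% of UMIs in E13 saline, 0.0298% at E15 and 0.0221% at P14, while the membrane proteins went from 0.349% at E13 to 0.551% at E15. These shares carry no TMM factors. Ctsk, a cathepsin best known from osteoclasts, did not exceed 0.25 CPM in any library and was not tested. Atp6v0d2, a pump subunit also known from osteoclasts and some macrophages, reached at most 1.81 CPM, in E15 MIA 1, and was tested only in the comparisons of stages. Those fits therefore cover 39 members and the others 38.

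**Figure D1:**
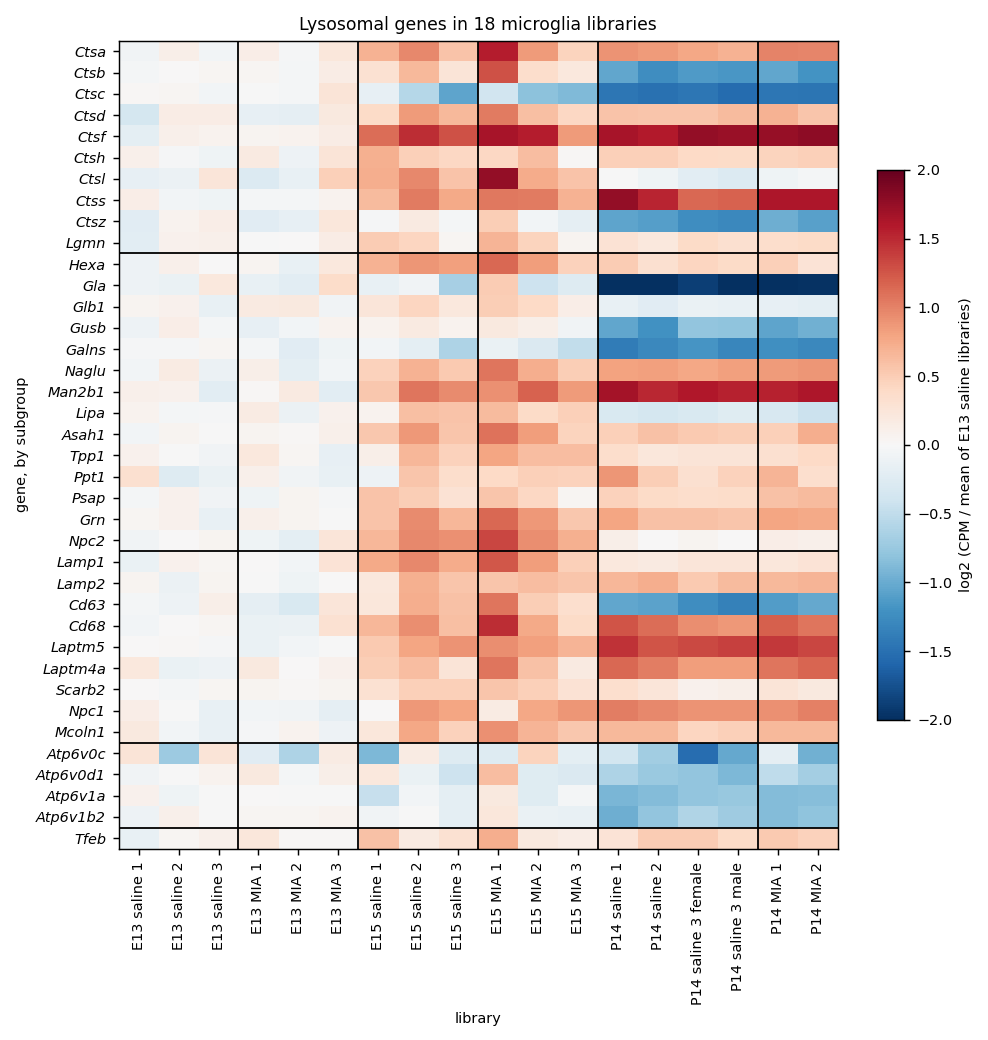
Level of 38 members (Ctsk and Atp6v0d2 are not drawn) in each of the 18 libraries, as the log2 ratio to the mean of the E13 saline libraries, with genes in rows by subgroup and libraries in columns by stage and treatment. Colours are clipped at 2 in either direction, which Gla exceeds at P14; the upper blocks turn warmer at E15, and the rows of Ctsb, Ctsc, Ctsz, Gla, Cd63 and the proton pump turn cooler at P14.

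Between E13 and E15, lysosomal genes rose broadly in saline microglia, while none of the 5 listed proton pump subunits was called. Of 39 members tested, 22 were higher at E15 and 1, Ctsc, was lower (edgeR, adjusted p under 0.05), where 12.7% of all 14441 genes were higher and 10.3% lower. The median log2 fold change was 0.50 over the members and 0.040 over all genes. In MIA microglia 24 members were higher and 1 lower, where 13.7% of all genes were higher and 13.5% lower, with a median of 0.64. The count in saline rested on few libraries: it was 13 without E13 saline 3, 13 without E15 saline 2 and 14 without E13 saline 1, where 2034, 1984 and 2418 genes were called against 3315 with all libraries, and 12 members were called in each of the 6 fits that left out 1 library. In MIA the corresponding number was 21. The share of all genes called in every such fit is not given for either treatment. Leaving out dividing cells gave 24 higher and 1 lower in both treatments, with 3625 of 14136 genes called in saline and 3782 in MIA, against 3315 and 3938 of 14441 genes with these cells. Marker panels also differed between the stages in saline: the neuron panel summed to 21.6 to 31.4 UMIs per 1000000 at E13 and 65.9 to 187 at E15, the macroglia panel to 8.92 to 10.6 and 11.9 to 13.98, the neural progenitor panel to 145 to 202 and 71.2 to 146, and the homeostatic panel to 4486 to 4917 and 7521 to 9232. In MIA the dissociation genes summed to 328 to 525 at E13 and 563 to 1945 at E15. There the homeostatic panel went from 4551 to 5068 to 8567.5 to 10889, and the neural progenitor panel from 162 to 217 to 66.0 to 95.3. Their part in the changes was not tested.

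Cathepsins gave the widest range of changes over this step in saline. In saline, 6 of the 10 tested were higher and 1 was lower, where 12.7% of all genes were higher and 10.3% lower. Ctsf, a cysteine protease, stood at 83.1, 102 and 100.4 CPM in the E13 saline libraries and at 208, 265 and 231 in the E15 saline libraries, without overlap. Its log2 fold change was 1.30 ± 0.17 (SE, adjusted p = 0.0001), a 2.46-fold rise, and 1.31 ± 0.17 in MIA. Ctss, which trims the invariant chain of MHC class II and stays active outside acidic compartments, stood at 2264, 1979 and 1928 at E13 and 3201, 4239 and 3475 at E15. It rose by 0.82 ± 0.16 in saline and 0.94 ± 0.16 in MIA. Ctsl, another cysteine endopeptidase, rose by 0.76 ± 0.26 in saline, a call that was lost when 1 library was left out (highest adjusted p = 0.14), and by 1.06 ± 0.26 in MIA.

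Ctsc went the other way. This dipeptidyl peptidase, which activates serine proteases in granulocytes and other blood cells, stood at 521, 527 and 492 CPM in E13 saline and at 456, 346 and 248 in E15 saline. All E15 libraries lay below all E13 libraries of their treatment, with 509, 499 and 612 at E13 and 392, 292 and 280 at E15 in MIA. It fell by 0.55 ± 0.17 in saline on the log2 scale (adjusted p = 0.031, highest 0.13 with 1 library left out) and by 0.75 ± 0.18 in MIA (adjusted p = 0.0053). Ctsz, a carboxypeptidase, changed by only 0.05 in saline, and Ctsb, an abundant endo- and exopeptidase, by 0.41 (adjusted p = 0.15).

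Of the 14 other hydrolases and cofactors, 9 rose in saline and none fell, where 12.7% of all genes rose and 10.3% fell. Man2b1, which removes mannose from glycoproteins, went from 321, 316 and 258 CPM at E13 to 434, 626 and 577 at E15, a log2 fold change of 0.87 ± 0.15. Npc2, the soluble carrier that hands cholesterol to Npc1, went from 584, 618 and 633 to 969, 1187 and 1154, a change of 0.85 ± 0.15. Hexa, the alpha subunit of beta-hexosaminidase A, went from 436, 503 and 470 to 756, 866 and 826, a change of 0.80 ± 0.15 (adjusted p = 0.0016). None of these groups overlapped, and each of these genes was called whichever library was left out. The share of all genes whose libraries separate without overlap is not given, here or for other members. Naglu, an enzyme of heparan sulphate breakdown, was among the largest in MIA at 0.82 ± 0.13. Gla, Gusb and Galns, which act on globotriaosylceramide, glucuronides and keratan sulphate, were not called in either treatment.

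Of the 9 membrane proteins, 7 rose in saline and all 9 in MIA, where 12.7% and 13.7% of all genes rose. Lamp1, the abundant membrane glycoprotein, stood at 788, 918 and 889 CPM in E13 saline and at 1470, 1691 and 1452 in E15 saline, a log2 fold change of 0.83 ± 0.15 (adjusted p = 0.0016). Laptm5, a lysosomal transmembrane protein of blood-derived cells, rose by 0.75 ± 0.11 in saline and 0.87 ± 0.11 in MIA. Cd68, a heavily glycosylated macrophage relative of the Lamp proteins, rose by 0.74 ± 0.21 in saline (adjusted p = 0.019, highest 0.079 with 1 library left out) and by 0.91 ± 0.21 in MIA. Of the 5 listed proton pump subunits none was called in either treatment. Their difference from the other members was not tested, and 2 of the 13 subunits outside the member list rose at this step in saline. Atp6v1a changed by -0.23 ± 0.12 in saline (adjusted p = 0.18). Tfeb, a transcription factor of lysosomal genes, changed by 0.37 ± 0.15 in saline (adjusted p = 0.090) and 0.30 ± 0.16 in MIA.

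**Figure D2:**
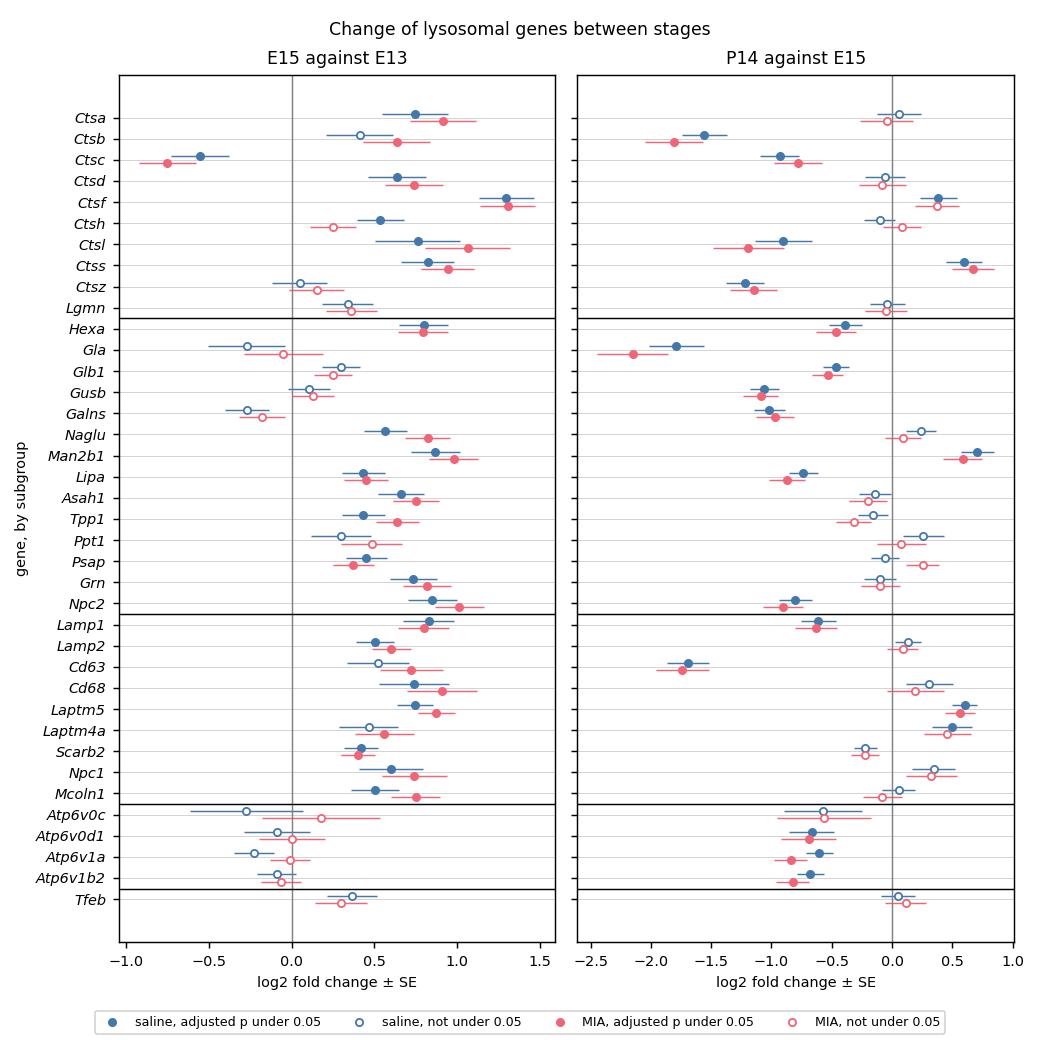
Log2 fold change ± SE of 38 members from E13 to E15 (left) and from E15 to P14 (right) in saline (blue) and MIA (red) libraries; filled points have an adjusted p under 0.05, and Atp6v0d2 is not drawn. Most points in the left panel lie right of 0, and in the right panel Cd63, Gla, Ctsb, Ctsz and the pump subunits lie left of 0 while Ctss, Man2b1 and Laptm5 lie right of it.

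Between E15 and P14 the members parted. In saline, 16 fell and 5 rose of 39 tested, where 24.9% of all genes fell and 24.5% rose. In MIA, 16 fell and 3 rose, where 19% of all genes fell and 18.4% rose. Those that fell included Ctsb, Ctsz, Ctsl, Ctsc, Gla, Gusb, Galns, Cd63 and subunits of the pump, while Ctss, Man2b1 and Laptm5 rose in both treatments. Other marker panels differed between these stages without overlap: over all libraries the border macrophage panel summed to 226 to 588 UMIs per 1000000 at E15 and 91.2 to 155 at P14, the neural progenitor panel to 66.0 to 146 and 6.57 to 24.2, and the macroglia panel to 11.7 to 15.4 and 37.3 to 60.1, and Ms4a7-positive cells made up 1.06% to 4.50% and 0.0810% to 0.351% of cells. The neuron panel summed to 26.9 to 255 at E15 and 9.90 to 22.7 at P14, also without overlap. Their part in the changes was not tested. The split depended on scaling. Without TMM factors all genes shifted upward, with their median going from 0.033 to 0.25 in saline and from 0.008 to 0.22 in MIA. In those fits 14 members fell and 10 rose in saline, and 13 fell and 6 rose in MIA. The shares of all genes called there are not given, so these counts cannot be read as a result about the members. No called member changed direction, but Hexa and Glb1 lost their call in both treatments and Atp6v0d1 lost it in MIA. Without E15 MIA 1, 14 members fell and 7 rose in MIA, with 4803 of 14249 genes called, against 5410 of 14441 with it.

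Ctsb and Cd63 changed most among their groups. Ctsb stood at 3733, 4754 and 3619 CPM in E15 saline and at 1472, 1280, 1380 and 1358 in P14 saline. Its log2 fold change was -1.56 ± 0.19 (adjusted p = 5.9e-06), a 2.94-fold fall, and -1.81 ± 0.24 in MIA. At P14 it was also below its level at E13, when it stood at 2948, 3040 and 3108. Cd63, a tetraspanin of late endosomes and of secreted vesicles, stood at 837, 1177 and 1065 in E15 saline and at 348, 341, 300 and 278 in P14 saline. It fell by 1.70 ± 0.17 on the log2 scale in saline (adjusted p = 1.1e-06), a 3.24-fold fall, and by 1.74 ± 0.22 in MIA. All P14 libraries of both genes lay below all embryonic libraries.

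Other cathepsins fell or rose over the same step. Ctsz went from 1693, 1948 and 1677 CPM in E15 saline to 827, 796, 725 and 698 in P14 saline, a log2 fold change of -1.22 ± 0.16 (adjusted p = 1e-05). Ctsc fell by 0.93 ± 0.16, to 189, 182, 188 and 176, its second fall in sequence. Ctsl fell by 0.90 ± 0.24 (adjusted p = 0.0046) and returned to 1631, 1549, 1426 and 1356, a range overlapping its E13 saline values of 1467, 1515 and 1948. Ctss rose further by 0.60 ± 0.15 (adjusted p = 0.0036), to 6925, 5890, 4540 and 4675. Its female and male libraries of replicate 3 stood below the other P14 saline libraries, yet all 4 lay above the highest E15 saline library at 4239. Ctsf rose by 0.38 ± 0.15 (adjusted p = 0.049), a call lost when 1 library was left out (highest adjusted p = 0.18), and was not called in MIA.

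Among the 14 hydrolases and cofactors, 7 fell and 1 rose in saline, where 24.9% of all genes fell and 24.5% rose. Gla stood at 11.1, 11.7 and 7.71 CPM in E15 saline and at 2.31, 3.03, 3.31 and 3.08 in P14 saline, a log2 fold change of -1.79 ± 0.23, and of -2.15 ± 0.29 in MIA. Gusb went from 470, 505 and 467 to 217, 192, 258 and 255, a change of -1.06 ± 0.12. Galns, a sulphatase, fell by 1.02 ± 0.13. These 3 enzymes, which had not been called from E13 to E15, separated E15 and P14 libraries without overlap. At this step 7136 of 14441 genes were called in saline, so such a separation is not shown to be particular to them. Man2b1 was the hydrolase that rose, by 0.71 ± 0.14, to 947, 846, 902 and 872.

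Membrane proteins and the pump also differed. Lamp1 fell by 0.61 ± 0.14, to 999, 978, 1029 and 1025 CPM, still above its 3 E13 saline values. Laptm5 rose by 0.60 ± 0.10, from 1417, 1711 and 1831 in E15 saline to 2673, 2353, 2457 and 2550 in P14 saline. In saline 3 of the 5 listed pump subunits fell, where 24.9% of all genes fell. Atp6v1a went from 59.2, 79.0 and 71.3 to 43.1, 44.6, 47.4 and 48.5, a log2 fold change of -0.60 ± 0.11, and of -0.84 ± 0.14 in MIA. Atp6v1b2, the ATP-binding partner of Atp6v1a, fell by 0.68 ± 0.11, and Atp6v0d1 by 0.67 ± 0.18 (adjusted p = 0.0068, highest 0.053 with 1 library left out). Tfeb changed by 0.05 ± 0.14 in saline and 0.11 ± 0.17 in MIA.

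**Figure D3:**
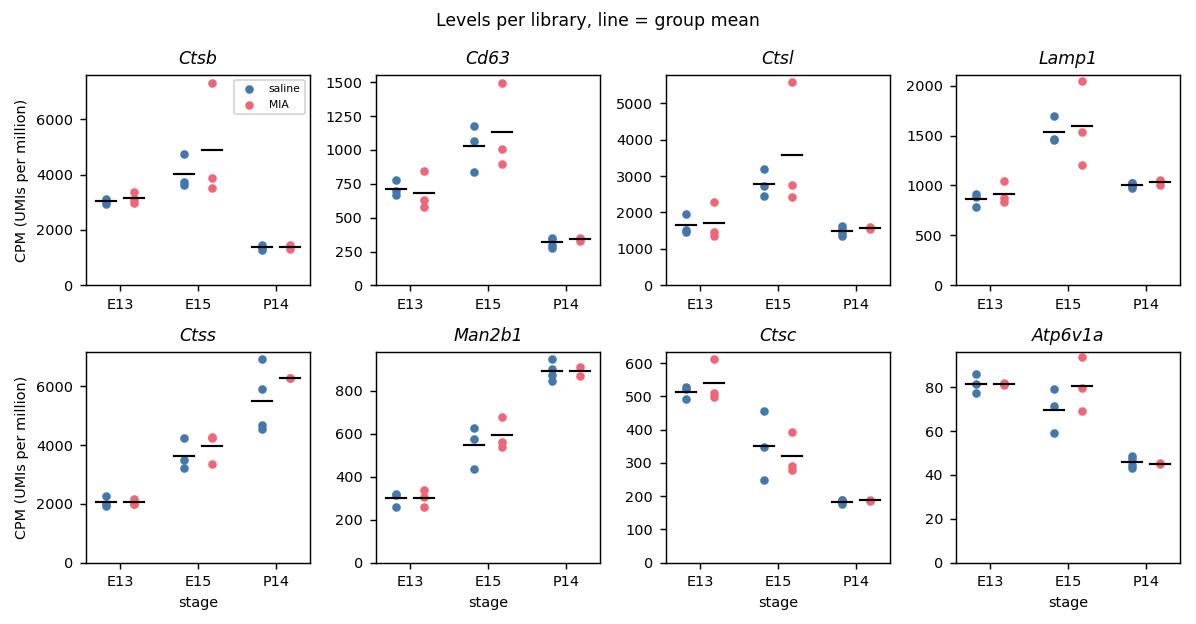
CPM of 8 members in each library by stage, with saline and MIA libraries as points and the group mean as a line. Ctsb and Cd63 are lowest at P14, Ctsl and Lamp1 are highest at E15, Ctss and Man2b1 climb at each stage, Ctsc descends at each stage, and Atp6v1a is lowest at P14; E15 MIA 1 is the highest E15 point for Ctsb, Cd63, Ctsl, Lamp1, Ctss and Atp6v1a.

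Taking both steps in saline, 4 members rose and rose again (Ctsf, Ctss, Man2b1 and Laptm5), 5 rose and then fell (Ctsl, Hexa, Lipa, Npc2 and Lamp1), and 13 rose and were then not called, among them Ctsd, the aspartic protease of lysosomes, and Grn, the precursor of granulins. Another 10 were not called at the first step and then fell, including Ctsb, Ctsz, Gla, Gusb, Galns, Cd63 and 3 pump subunits. Ctsc fell at both steps. Laptm4a was called, as a rise, at the second step and not at the first, and 5 were called at neither step, among them Lgmn, the asparaginyl endopeptidase that processes cathepsins, and Tfeb. The E15 libraries enter both steps, so the sequences are a description. The call was the same in saline and MIA for 35 of 39 members at the first step and 37 of 39 at the second, and no member was called in opposite directions. Of the 12 members with CACGTG in the promoter window, 7 rose and none fell at the first step and 1 rose and 6 fell at the second. Of the 20 tested members whose window lacked it, the numbers were 12 and 1, and then 4 and 7. Over all genes 12.7% rose and 10.3% fell at the first step and 24.5% rose and 24.9% fell at the second.

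The members that rose first and were then not called kept much of their E15 level. Ctsd stood at 2702, 3816 and 3847 CPM in E13 saline, 4510, 6230 and 5390 in E15 saline and 5140, 5056, 5096 and 5368 in P14 saline, with log2 fold changes of 0.64 ± 0.17 and then -0.06 ± 0.16. Asah1, the acid ceramidase, stood at 275, 298 and 286, then 418, 520 and 419, then 396, 428, 412 and 404, with changes of 0.66 ± 0.14 and -0.14 ± 0.13. For both genes every E15 and P14 saline library lay above every E13 saline library. Scarb2, the receptor that carries glucocerebrosidase to lysosomes, rose by 0.42 ± 0.10 and then changed by -0.22 ± 0.10 (adjusted p = 0.064), and Lamp2, a further Lamp glycoprotein with a role in autophagy, rose by 0.50 ± 0.12 and then changed by 0.13 ± 0.11. Npc1 rose by 0.60 ± 0.19, but E15 saline 1, at 74.1 CPM, lay within its E13 saline range of 66.7 to 81.6. Laptm4a changed by 0.47 ± 0.18 (adjusted p = 0.068) and then rose by 0.50 ± 0.17, a call lost when 1 library was left out (highest adjusted p = 0.084). Of the members called at neither step, Lgmn stood at 2174 to 2680 in E13 saline, 2567 to 3567 in E15 saline and 2886 to 3247 in P14 saline, and Ppt1, which removes palmitate from proteins, at 110 to 165, 123 to 194 and 165 to 242. Their ranges overlapped between neighbouring stages.

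Cells whose barcode had more UMIs in another library changed these counts little. Without them, saline gave 22 higher and 1 lower at the first step, where 23.3% of all genes were called, and 5 higher and 16 lower at the second, where 50.9% were called. MIA gave 25 higher and 1 lower, where 29% of all genes were called, and then 3 higher and 16 lower, where 36.4% were called.

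The wider lysosomal pathway, 99 genes in 6 lists, was read in the same fits. In saline, 20 of 97 tested rose and 4 fell from E13 to E15, where 12.7% of all genes rose and 10.3% fell, and 17 rose and 35 fell from E15 to P14, where 24.5% of all genes rose and 24.9% fell. Cst3, which encodes cystatin C, the secreted inhibitor of cysteine cathepsins, stood at 4228 to 4365 CPM in E13 saline, 8174 to 11226 in E15 saline and 37548 to 58868 in P14 saline, rising by 1.23 ± 0.19 and then by 2.20 ± 0.19 on the log2 scale. Cstb, the intracellular cystatin, instead fell by 1.65 ± 0.22 from E15 to P14. Of the 5 inhibitors tested, 1 rose at the first step, and 1 rose and 2 fell at the second. The counts in the lists that follow stand against the same shares of all genes.

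Among 31 other acid hydrolases, 9 rose and none fell at the first step, and 6 rose and 11 fell at the second. Gm2a, the activator of ganglioside breakdown, rose by 0.85 ± 0.14 at the first step. Lyz2, lysozyme of phagocytes, stood at 479 to 575 CPM at E13, 539 to 640 at E15 and 49.0 to 82.8 at P14 in saline, a fall of 3.17 ± 0.16 on the log2 scale at the second step. Acp5, the tartrate-resistant acid phosphatase, stood at 6.22 to 9.31, 10.4 to 11.3 and 0.478 to 1.03 and fell by 3.98 ± 0.30. Plbd1, which stood at 0.804 CPM or less in E15 saline and at 0.0299 or less in P14 saline, was also called lower at P14.

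The remaining lists held the rest of the pump and the regulators. Of 13 other pump subunits, Atp6v0b (0.64) and Atp6ap1 (0.58) rose at the first step, none fell and 10 lay above 0. Atp6v0b went from 550 to 553 CPM in E13 saline to 800 to 917 in E15 saline. At the second step 1 rose and 4 fell, led by Atp6v1g1 (-0.80), Atp6v0e (-0.78) and Atp6v1f (-0.75). Of 12 sorting genes, 1 rose and 1 fell and then 1 rose and 5 fell. Igf2r, one of the mannose 6-phosphate receptors that deliver enzymes to lysosomes, fell by 1.96 at the second step but lay under 1 CPM, at 0.786 to 0.919 in E15 saline and 0.141 to 0.285 in P14 saline. M6pr, the other such receptor, stood at 109 to 150 CPM in E15 saline and 114 to 152 in P14 saline and was not called (0.02 ± 0.14). The sorting receptor Sort1 rose by 1.16. Of 15 genes of the MiT family and of mTORC1 at the lysosome, 4 rose and 2 fell and then 2 rose and 7 fell. Tfec, the MiT member largely restricted to macrophage-lineage cells, fell by 2.54 ± 0.21, and Rragd, a GTPase of this system, rose by 1.30 ± 0.43 and then fell by 1.04. Rragd was low, at 0.776 to 0.857 CPM in E13 saline, 1.01 to 3.14 in E15 saline and 0.689 to 1.18 in P14 saline. Its E15 and P14 ranges overlapped. Of 21 channels and transporters, 3 rose and 1 fell and then 6 rose and 6 fell, with Slc29a3, a nucleoside transporter, rising by 0.79 at the first step.

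Dividing cells held less of most members than the other cells of their library. These cells were taken by a threshold on cell cycle genes, so the class is a range and not a type. At E13, 28 of 38 members were lower and 2 higher in dividing cells, where 25.8% of all genes were lower and 24% higher, with a median log2 fold change of -0.20 over the members and -0.013 over all genes. At E15, 32 were lower and 3 higher, where 26.6% of all genes were lower and 25.2% higher, with a median of -0.41. Doubling or halving the threshold moved the class from 6241 cells to 4840 or 7212 of 12541 at E13, and from 3148 to 2532 or 3724 of 21616 at E15. Marker panels moved too: the homeostatic panel summed to 4337 to 5029 UMIs per 1000000 in dividing cells against 4624 to 5259 in the others at E13 and to 6170 to 8965 against 8058 to 11080 at E15, lower in 6 of 6 libraries at both stages. The border macrophage panel was also lower in 6 of 6 at both stages, and the dissociation genes in 6 of 6 at E15. The neuron panel was lower in 6 of 6 at E15 as well, at 23.9 to 242 against 27.4 to 257. Their part in the result was not tested.

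Cd63 led at both stages. In dividing cells of the 6 E15 libraries it stood at 490 to 793 CPM, with a median of 591, against 890 to 1452 with a median of 1051.5 in the other cells, and it was lower in 6 of 6. Its log2 fold change was -0.84 ± 0.05 at E15 and -0.40 ± 0.03 at E13. Ctsf (-0.77 ± 0.04), Lipa, the acid lipase that frees cholesterol (-0.72 ± 0.07), and Ctsb (-0.69 ± 0.06) followed at E15, and Ctsf (-0.35 ± 0.03), Cd68 (-0.34) and Npc2 (-0.33) at E13. The called pump subunits at E15 were Atp6v1b2 (-0.24), Atp6v1a (-0.23) and Atp6v0d1 (-0.15). Atp6v0c, the remaining tested subunit, stood at a median of 4.64 against 6.29 CPM, lower in 6 of 6 libraries, and was not called (-0.39 ± 0.16, adjusted p = 0.060).

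A few members were higher in dividing cells. Gla stood at 11.9 to 16.7 CPM in dividing cells at E13, with a median of 12.6, against 7.83 to 13.3 and a median of 9.57 in the others. It was higher in 6 of 6 libraries at E13, by 0.41 ± 0.07, and in 5 of 6 at E15, by 0.47 ± 0.11. Ctsc was higher in dividing cells in 6 of 6 libraries at E15, at 297 to 461 with a median of 366 against 229 to 405 with a median of 299, a log2 fold change of 0.30 ± 0.04. Galns was also higher at E15, by 0.26 ± 0.06, and Mcoln1 at E13, by 0.19 ± 0.07. These calls were not made at both stages: Ctsc (-0.04 ± 0.03) and Galns (-0.02 ± 0.05) were not called at E13, nor was Mcoln1 at E15 (-0.14 ± 0.07), where it was lower in 5 of 6 libraries.

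Ms4a7-positive cells, 513 at E13 and 693 at E15, differed in kind of cathepsin. Ms4a7 marks macrophages of the brain borders. In its atlas the paper named a cluster with border macrophage genes Ms4a7-expressing microglia. It located such cells inside the embryonic cortex by RNA in situ hybridization. The border macrophage panel summed to 1755 to 9709 UMIs per 1000000 in this class against 237 to 527 in the other cells at E13, and to 2078 to 6323 against 153 to 311 at E15. That panel includes Ms4a7, by which the class was cut, so part of this contrast was fixed in advance. Ms4a7 alone stood at 436 to 638 against 6.53 to 14.4 at E13, and at 597 to 792 against 2.04 to 6.46 at E15. The homeostatic panel was lower in the class in all 6 libraries at E13 and all 5 with at least 20 such cells at E15. Ctsl stood at 556 to 809 CPM in the class at E13, with a median of 737, against 1454 to 2221 with a median of 1489, and its log2 fold change was -1.20 ± 0.06 at E13 and -1.46 ± 0.05 at E15. At E15 it was 1038 against 2584 in saline 1, 998 against 3045 in saline 2, 820 against 2281 in saline 3, 2184 against 5289 in MIA 1 and 856 against 2650 in MIA 2.

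Other cathepsins were higher in the Ms4a7-positive cells. Ctsh, an aminopeptidase, was higher by 0.68 ± 0.11 at E13 and 0.74 ± 0.06 at E15, and Ctsc by 0.51 and 0.64. Laptm4a, a small protein of late endosomes and lysosomes, was higher by 0.94 ± 0.07 and 0.66 ± 0.05. Hexa (0.51 and 0.26), Glb1, the lysosomal beta-galactosidase (0.49 and 0.36), Atp6v1a (0.39 and 0.27) and Atp6v1b2 (0.31 and 0.25) were higher at both stages. Over all 38 members, 20 were higher and 4 lower at E13, where 11.7% of all genes were higher and 9.52% lower. At E15, 10 were higher and 6 lower, where 9.88% were higher and 11.4% lower. Without TMM factors 9 were lower. The share of all genes lower in that fit is not given, so that count cannot be read as a result about the members. In the saline libraries alone at E13, 14 members were called, with 1178 of 11251 genes called, against 2198 of 10379 over all 6 libraries. The dividing panel was lower in the class at E13 in 6 of 6 libraries, at 726 to 1903 UMIs per 1000000 against 1713 to 2469, and the neuron panel higher in 5 of 6, at 34.5 to 77.1 against 17.9 to 47.1. Their part in the result was not tested.

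Spp1-high cells at E15 held more of some lysosomal genes and less of others. Spp1, osteopontin, marks a state of microglia seen early in development and in injury. The class was tested in the 3 libraries with at least 20 such cells, which held 28 cells in saline 2, 179 in MIA 1 and 21 in MIA 2. Of 38 members, 17 were higher and 7 lower, where 12.7% of all genes were higher and 16.4% lower. With 3 libraries, the spread behind these tests was largely borrowed across genes. The panel of dissociation genes, which includes Ccl3 and Ccl4, summed to 2539 to 3593 UMIs per 1000000 in the class against 529 to 1866 in the other cells, higher in 3 of 3. The paper reports a Ccl3- and Ccl4-high substate that had several markers in common with its Spp1-high cluster. The homeostatic panel was lower in 3 of 3, at 5625 to 7013 against 9287 to 11198, and the border macrophage panel higher in 2 of 3, at 295 to 2452 against 220 to 567. The dividing panel was lower in 3 of 3, at 35.8 to 372 against 464 to 633. Over the 6 E15 libraries the median UMI count of Spp1-high cells was 15700 to 20262.5, against 8757 to 12679 in the other cells. The part of these features in the result was not tested.

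Among the 38 tested members Gla had the largest fold change in these cells. It stood at 97.5 against 9.51 CPM in saline 2, 61.1 against 12.54 in MIA 1 and 42.4 against 8.20 in MIA 2, a log2 fold change of 2.65 ± 0.21. Atp6v1a stood at 222 against 70.8, 215 against 75.7 and 155 against 63.2 in the same order, a change of 1.50 ± 0.11. Ctsb (0.99 ± 0.06), Cd63 (0.93 ± 0.07), Ctsl (0.91), Galns (0.77) and Atp6v0d1 (0.75) were higher as well. Of the tested V-ATPase subunits 3 were called, all as higher in Spp1-high cells, and Atp6v0c was not called. The same 3 fell from E15 to P14 in the whole libraries, where 16 of 39 members and 24.9% of all genes fell in saline. Atp6v0d2, which was too low to be tested, stood at 32.5 against 0.354 CPM in saline 2, 17.9 against 0.419 in MIA 1 and 0 against 0.0279 in MIA 2.

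The members that were lower in Spp1-high cells included Ctsf, Man2b1, Ctss and Laptm5, which rose at both steps in saline, and Lgmn, which was called at neither. From E13 to E15, 22 of 39 members and 12.7% of all genes rose in saline. Ctsl, which was among those members, was higher in Spp1-high cells. Ctsh stood at 128 against 366, 107 against 361 and 140 against 405 CPM, a log2 fold change of -1.64 ± 0.11. Ctsf stood at 122 against 247, 124 against 284 and 105 against 265, a change of -1.18 ± 0.11. Man2b1 was lower by -0.89 ± 0.09, and Ctss, Psap, Lgmn and Laptm5 were also lower. At P14 no library held more than 3 Spp1-high cells, and the class was not tested there.

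**Figure D4:**
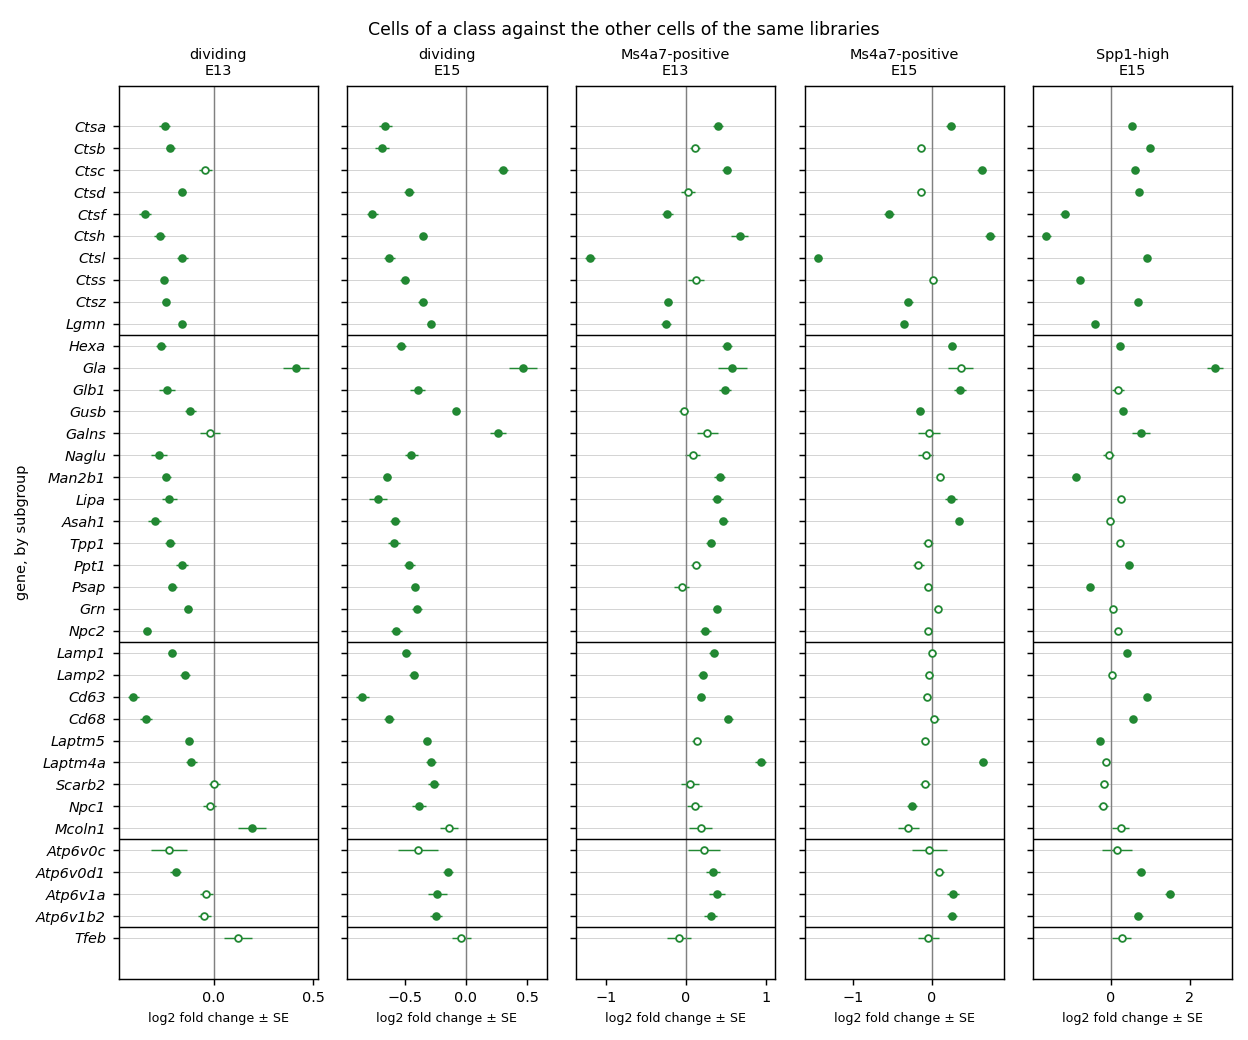
Log2 fold change ± SE of 38 members in dividing, Ms4a7-positive and Spp1-high cells against the other cells of the same libraries; filled points have an adjusted p under 0.05. Dividing cells lie mostly left of 0, Ctsl stands far left in Ms4a7-positive cells, and Gla and Atp6v1a stand far right in Spp1-high cells.

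MIA and saline offspring were compared at each stage, the contrast the series was designed for. No member was called at E13, E15 or P14, and neither was any other gene: 0% of 12509, 13321 and 13060 genes (edgeR), with 133, 40 and 463 genes at an unadjusted p under 0.05. With the replicate number as a block, edgeR called 3 of 12509 genes at E13 and 0 at E15 and P14. Of 38 members, 0 at E13, 0 at E15 and 1 at P14 had an unadjusted p under 0.05. DESeq2 also called 0 members at each stage, but its count over all genes is not given here to set beside that. The median log2 fold change over the members was 0.047 at E13, 0.12 at E15 and 0.053 at P14, against 0.0025, 0.0095 and -0.0040 over all genes, and 25, 33 and 29 of the 38 members stood above 0, as did 6361 of 12509, 7039 of 13321 and 6381 of 13060 genes. The E15 values rested on E15 MIA 1, the highest E15 library for 29 of the 38 members: without it the members' median was -0.049. Calls missing here do not show that levels were alike: at E15 the standard errors of the members named here ran from 0.18 to 0.31 on the log2 scale.

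The member with an unadjusted p under 0.05 was Psap, the precursor of the saposins that help hydrolases act on sphingolipids. At P14 it stood at 1526, 1449, 1416 and 1430 CPM in saline and at 1654 and 1722 in MIA, without overlap. Its log2 fold change was 0.21 ± 0.073 (edgeR, unadjusted p = 0.020, adjusted p = 0.94). At E15 the largest member change by the naming rule was that of Ctsl, at 2718, 3195 and 2448 in saline and 5573, 2746 and 2430 in MIA. Its value of 0.37 ± 0.31 came with the library E15 MIA 1 and was -0.098 without it. Lamp1 at E15 likewise stood at 2048 in MIA 1 and at 1536 and 1201 in the other MIA libraries, against 1470, 1691 and 1452 in saline.

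Other members named at each stage differed little. At E13, Ctsa, a carboxypeptidase that also stabilises other hydrolases, changed by 0.12 ± 0.12, Npc1, the membrane cholesterol exporter, by -0.10 ± 0.12 and Atp6v0d1 by 0.096 ± 0.11. At E15, Mcoln1 changed by 0.23 ± 0.19, Tpp1, a tripeptidyl peptidase, by 0.25 ± 0.19 and Atp6v1a by 0.22 ± 0.18. At P14, Ctsa changed by 0.18 ± 0.084, Atp6v0d1 by 0.15 ± 0.095 and Laptm4a by 0.15 ± 0.11. Tfeb changed by 0.085 ± 0.13, 0.023 ± 0.21 and 0.074 ± 0.099 at the 3 stages.

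The difference between treatments in the change with stage was tested directly and was called for 0 of 39 members at either step, where 0% of 14441 genes were called (edgeR), with 80 genes at an unadjusted p under 0.05 for E13 to E15 and 147 for E15 to P14. Among the named members were Ctsh (-0.29 ± 0.20) and Naglu (0.26 ± 0.19) for the first step and Psap (0.31 ± 0.18) and Atp6v1a (-0.24 ± 0.18) for the second, with MIA minus saline as the direction. Members that were called in 1 treatment and not in the other, such as Cd63 and Ctsb from E13 to E15 and Ctsf from E15 to P14, are therefore not shown to differ between treatments.

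**Figure D5:**
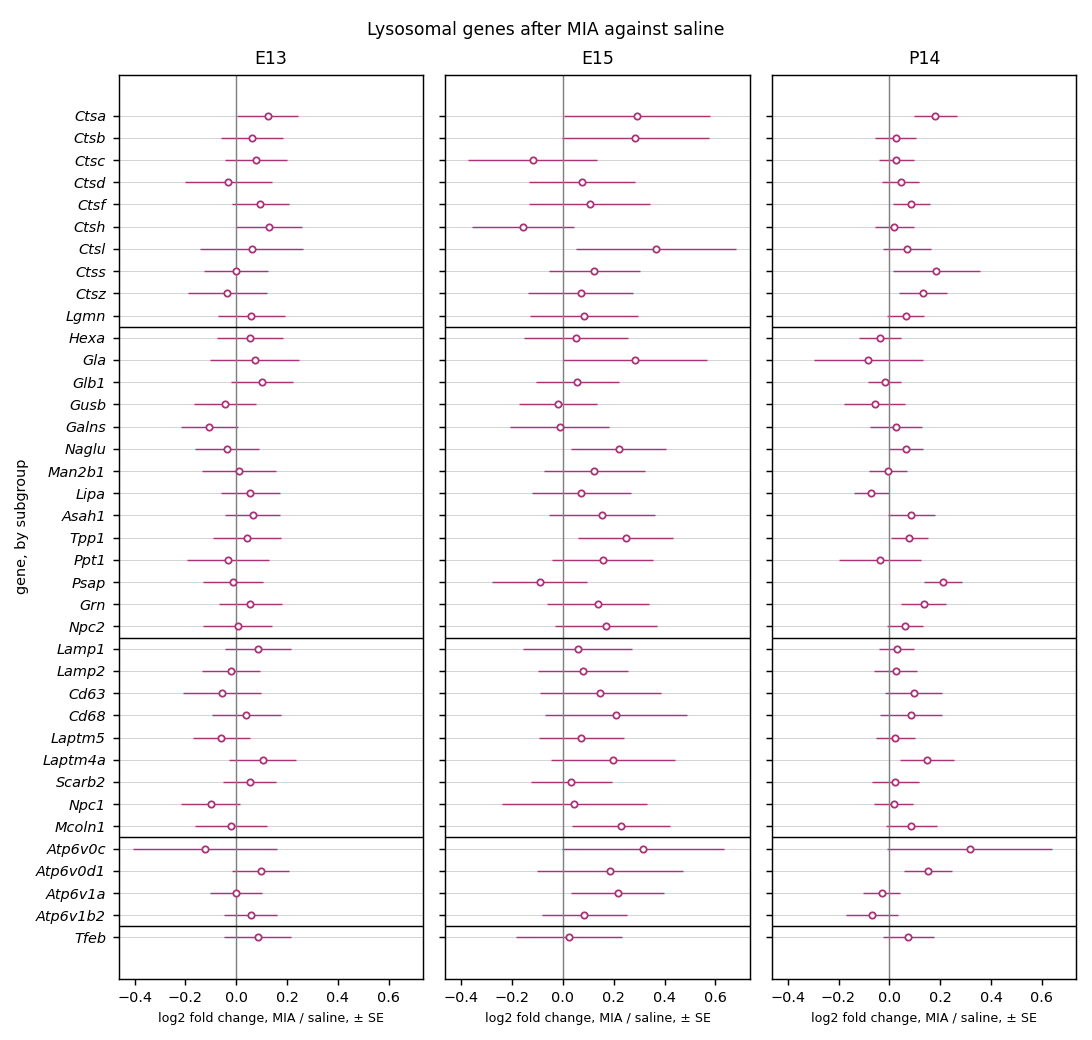
Log2 fold change ± SE of 38 members in MIA against saline libraries at E13, E15 and P14; open points mark an adjusted p of 0.05 or more. All points are open, and at E15 most lie right of 0 with error bars wider than at the other stages.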

How the data were processed

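The authors deposited matrices of UMI counts per gene and cell for each 10x Genomics 3′ v3.1 library, as filtered barcodes. The submitters' processing notes name Cell Ranger 3.1.0 and mm10. Here, cells with at least 500 genes, at most 20% mitochondrial UMIs, at least 5 UMIs of a macrophage panel, other cell type panels at no more than 0.25 of it and at most 10% globin UMIs were kept. No doublet caller was run; an alternative left out the cells with most UMIs. Counts were summed per library and tested with edgeR 4.0.16 (quasi-likelihood, TMM, filterByExpr, Benjamini-Hochberg adjusted p under 0.05 over all genes; R 4.3.3): MIA against saline within each stage, stages and their interaction with treatment in 1 fit over 18 libraries, and cell classes with the library as a block. DESeq2 1.42.0 was an alternative. Levels are CPM (UMIs scaled to 1000000 per library with TMM factors), comparable between libraries but not between genes. Dividing cells had at least 3 UMIs and 0.1% of UMIs from cell cycle genes, Ms4a7-positive cells at least 2 UMIs and 0.02%, and Spp1-high cells 0.2% or more; a library needed 20 cells of a class. The labels do not say that libraries came from separate litters, so p-values measure the spread between these samples. The members and lists were chosen with earlier results of these data known. For each comparison and subgroup, up to 3 called members with the largest change were named, or else the member with the smallest p; other members were named for their level or role after their values were seen. One gene that this rule names is not reported here. Deviations from the group mean correlated between same-numbered saline and MIA libraries by 0.555, 0.178 and 0.531 at E15, against -0.535 to 0.158 in other pairs. At E13 the values were 0.214, 0.0098 and 0.318, against -0.303 to 0.0658. The 2 pairs at P14 had 0.224 and 0.214. Same-numbered libraries also shared barcodes: 67 in E13 saline 1 and MIA 1, and 114 in P14 saline 1 and MIA 1. The labels do not explain the numbers, and the main fits took no account of them. Alternatives for cells that share barcodes, and without both E15 libraries numbered 1, were chosen after seeing the data.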

Additional observations from a re-analysis of the deposited data

Results flagged for a closer look

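Grn at P14 stood at 1682.4 CPM in saline 1 and at 1429.2 to 1455.3 in the other 3 saline libraries, and was picked out because 1 library lay far from the rest. Glb1 at P14 stood at 36.495 in saline 2 and at 38.665 to 38.954 in the other 3, for the same reason. These were 2 of 46 values examined in groups of 4, where chance gives about 1 in 20. Groups of 3 were not examined.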

How the results depend on the processing

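The count of members called from E13 to E15 in saline ranged from 13 to 25 when 1 library was left out (23 with all). Ms4a7-positive cells at E13 gave 14 called members in saline libraries only (24 in all), and the summed level in P14 MIA was 3.56% with all cells kept (3.59% after filtering). With both E15 libraries numbered 1 left out, the E15 MIA change became -0.11 for Ctsl, -0.0086 for Atp6v1a and -0.059 for Tfeb. The difference in response became 0.092 for Mcoln1 from E15 to P14 and -0.017 for Atp6v1a from E13 to E15, both of opposite sign to the values with all libraries. Tfeb at E15 in MIA was -0.10 with all cells, -0.0089 without the cells of most UMIs, -0.0065 without TMM factors and -0.19 with the share of Xist-positive cells as a covariate. Tfeb was 0.023 and 0.038 in dividing cells at E15 with the threshold doubled and in saline only, and in Ms4a7-positive cells 0.060 and 0.086 at E13 and 0.0016 and 0.099 at E15. With 1 library left out, Ctsl at E15 in MIA ranged from -0.098 to 0.56. Tfeb, which was not called in any comparison, ranged from -0.18 to 0.15 for E15 MIA against saline, from -0.034 to 0.17 from E15 to P14 in saline, from -0.066 to 0.27 and from -0.28 to 0.062 for the difference in response at the second and first step, from -0.083 to 0.0076 in dividing and from -0.081 to 0.067 in Ms4a7-positive cells at E15. The replicate block left 0 members called in MIA against saline at each stage, where 3 of 12509, 0 of 13321 and 0 of 13060 genes were called. From E13 to E15 in saline it gave 24 higher and 1 lower, where 26.2% of all genes were called, with Laptm4a and Glb1 added. It changed no other call of a member between stages or treatments. Over the members and pathway genes that the naming rule picked in each comparison, counting each gene under each alternative, direction and call were kept 4278 times, the call was lost 222 times and gained 4 times, and the direction reversed 31 times; genes outside the rule, such as members gained without TMM factors, are not in these counts. The cause of these changes was not tested. Depth limited members under a few CPM, such as Ctsk and Atp6v0d2. Spp1-high cells could not be tested at P14, nor at E15 in saline only or with the threshold doubled. At E13, 331 of 12541 cells were Spp1-high, 1 to 228 per library, against 268 of 21616 at E15. No comparison of this class was run at E13.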

Other observations

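The female and male P14 libraries of saline replicate 3 differed over the 38 members by log2 ratios (female over male) from -0.50 for Atp6v0c, a pump subunit at 2.5 to 9.75 CPM over all libraries, to 0.13 for Galns, with a median of 0.020 and 24 members higher in the female library. With 1 library of each sex there was no test.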
